A study of Mus musculus with 5 samples.

Results

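Broad Lsd1 domains are wide stretches of chromatin on which the histone demethylase Lsd1 was found in both MG tumors studied here, a mouse model of medulloblastoma. They were selected on Lsd1 peak width and on the overlap of both Lsd1 replicates: a replicate 1 peak entered when it was at least 6000 bp wide and had at least 50% of its length in 1 replicate 2 peak. Of 30367 Lsd1 peaks in replicate 1, 1106 were that wide, and 954 of those passed the overlap and make up the set. They are 4.16% of the 22925 replicate 1 peaks of any width that passed the same overlap, and the other 21971 serve below as the narrower peaks. The set covers 8.42 Mb, which is 12.2% of the 69.0 Mb under all replicate 1 peaks.

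The tumors grew from Prominin1+, lineage-negative neural stem cells sorted from the cerebella of wild-type (WT) C57BL/6 mice 5 to 7 days old. The cells were infected with retroviruses for stabilized Myc and for Gfi1 and transplanted into the cerebella of NSG mice. The hosts were adult at transplantation and when the tumors were taken, and the tumor cells of every library carry both transgenes. From each of 2 such tumors, numbered 39 (replicate 1) and 41 (replicate 2), chromatin was immunoprecipitated with the anti-Gfi1 antibody GNE-CJS-2 and with the anti-Lsd1 antibody ab17721, which gave 4 ChIP-seq libraries. The listed input, a pool of Myc and Gfi1b (MGB) tumors, was not analysed here, and no normal stem cells or other tumor type can be set beside the MG tumors. The viral vectors drive Gfi1, so these lists show where Gfi1 lies when it is supplied from a vector, and material from the host cerebellum was not separated by the peak lists. With no expression values in the lists, the labelled tumor type could not be checked against expressed markers.

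Lsd1, also called Kdm1a, removes methyl groups from histone tails and works in complexes with the CoREST proteins. It has no sequence preference of its own and is brought to DNA by partners. One of these is Gfi1, a zinc finger repressor that binds Lsd1 through its short SNAG domain. A peak is a stretch in which a library's reads exceed the control, and most peaks of such factors are narrow and sit on a promoter or enhancer. A broad domain is one unbroken call that can span a promoter, the body of a short gene, or several neighbouring genes.

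The lists held 30367 and 33213 Lsd1 peaks and 36836 and 25078 Gfi1 peaks in tumors 39 and 41. Between 1.43% (Gfi1, tumor 41) and 3.64% (Lsd1, tumor 39) of a list was 6000 bp wide or more. The lists carry no read counts, so the depth behind a single peak is unknown. The spread between the 2 tumors is the only replicate error, given below as SD with n = 2, and it was not used for a test, since an exact sign permutation of 2 pairs cannot give a two-sided p below 0.5.

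The sequences below show what lies at the starts of genes in the 3 widest domains with a RefSeq promoter, at the promoter with the least Gfi1 around it, and at the centre of a domain that Gfi1 covered almost whole. Each is 250 bases long, from GRCm38.p6, the build of mm10. The first 4 are the bases directly before a RefSeq gene start, read 5′ to 3′ on the gene's strand. Capitals mark each CG dinucleotide (CpG).
Gm14321, chr2:167777241-167777490, plus strand: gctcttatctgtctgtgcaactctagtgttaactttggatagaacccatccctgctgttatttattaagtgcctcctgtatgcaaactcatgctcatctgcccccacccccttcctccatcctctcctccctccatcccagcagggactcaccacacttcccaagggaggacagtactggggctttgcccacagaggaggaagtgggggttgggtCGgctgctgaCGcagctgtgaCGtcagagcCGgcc
Midn, chr10:80148022-80148271, plus strand: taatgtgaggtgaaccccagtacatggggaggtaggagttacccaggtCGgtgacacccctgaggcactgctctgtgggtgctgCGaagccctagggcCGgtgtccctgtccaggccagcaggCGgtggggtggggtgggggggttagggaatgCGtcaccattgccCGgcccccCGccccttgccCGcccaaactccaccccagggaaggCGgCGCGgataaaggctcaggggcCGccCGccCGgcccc
Coro2a, chr4:46601930-46602179, minus strand: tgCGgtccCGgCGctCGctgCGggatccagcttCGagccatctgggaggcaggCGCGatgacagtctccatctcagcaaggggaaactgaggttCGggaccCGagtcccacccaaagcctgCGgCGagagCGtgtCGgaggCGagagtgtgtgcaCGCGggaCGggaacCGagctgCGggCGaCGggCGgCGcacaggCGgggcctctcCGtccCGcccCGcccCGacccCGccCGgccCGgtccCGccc
Npas4, chr19:4989972-4990221, minus strand: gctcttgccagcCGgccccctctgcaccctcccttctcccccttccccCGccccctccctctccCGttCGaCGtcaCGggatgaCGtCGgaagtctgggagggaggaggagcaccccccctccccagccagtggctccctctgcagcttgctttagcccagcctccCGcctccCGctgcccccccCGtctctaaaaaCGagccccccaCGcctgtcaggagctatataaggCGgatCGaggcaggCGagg
Plxnd1 domain centre, chr6:115990053-115990302, plus strand: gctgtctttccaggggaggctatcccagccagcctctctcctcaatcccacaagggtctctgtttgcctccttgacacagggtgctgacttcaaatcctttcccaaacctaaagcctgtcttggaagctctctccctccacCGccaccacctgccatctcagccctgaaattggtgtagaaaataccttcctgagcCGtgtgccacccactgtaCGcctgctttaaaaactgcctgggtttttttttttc
The Gm14321 stretch holds 4 CpG, Midn 14, Coro2a 33 and Npas4 16. The stretch from the Plxnd1 domain, chosen as the highest mean Gfi1 cover among domains under 50% masked as repeats, holds 3. Lsd1 peaks covered 100% of all 5 stretches in both tumors, and Gfi1 peaks did so in both tumors for all but Npas4, where Gfi1 covered 100% of the stretch in tumor 39 and 33.6% in tumor 41. Over 1010 such stretches inside domains the median was 16 CpG (quartiles 9 and 22), against 6 (quartiles 2 and 16) over all 32817 RefSeq promoter stretches of that length. The core of the Gfi1 recognition sequence, AAATCAC on either strand, is in none of the 5. It is in 12 (1.19%) of the stretches inside domains and in 2.75% of all of them, which were not matched for base composition.

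Domain widths ran from 6001 to 45159 bp with a median of 7595.5 bp. In all, 404 domains were 8000 bp wide or more, 124 were 12000 bp or more and 16 were 20000 bp or more. Because width and replicate overlap chose the members, these values are a description. In replicate 2, 1 peak covered a median of 89.96% of a domain's length and all peaks together 95.9%. A single replicate 2 peak touched 560 domains (58.7%), 2 touched 331 and at least 3 touched 63. The best-matching replicate 2 peak was itself 6000 bp wide or more for 679 domains (71.2%). At the edges of the rule, the narrowest members were 6001 and 6008 bp wide, and the widest peaks just below the limit were 5998 and 5993 bp wide. The members with the least overlap had 50.05% and 50.07% of their length in 1 replicate 2 peak, and the nearest peaks outside had 49.99% and 49.78%.

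The widest domain spans chr2:167741428-167786586 (mm10) and holds the starts of the noncoding genes Gm14321 and 9230111E07Rik but of no protein-coding gene. The nearest coding start, that of Tmem189, is 51606 bp away. Its Lsd1 score stood at percentile 66.9 of the tumor 39 list and its best replicate 2 peak at percentile 96.8 of the tumor 41 list. Gfi1 peaks covered 90.6% of it in tumor 39 and 79.1% in tumor 41, in 7 and 9 separate peaks. A second domain of 19636 bp, chr2:167721598-167741233, ends just before the first begins and lies within the noncoding gene A530013C23Rik. Gfi1 covered 87.7% of that neighbour in tumor 39 and 43.7% in tumor 41. The pair thus reached almost the same share in tumor 39 and differed in tumor 41.

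The second widest domain, chr10:80127787-80157930, is 30144 bp wide. It holds the starts of Cbarp, a regulator of calcium channels, Atp5d, a subunit of the mitochondrial ATP synthase, and Midn, a nuclear protein that helps to degrade short-lived proteins. Gfi1 covered 100% of it in tumor 39 with 1 peak and 89.3% in tumor 41 with 4 peaks. It is followed by a domain of 21622 bp, chr10:80157973-80179594, over Cirbp, the cold-inducible RNA-binding protein, 1600002K03Rik and Efna2, an ephrin ligand. There Gfi1 cover was 78.9% in tumor 39 and 85.2% in tumor 41.

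On chr7:45697726-45723053, 1 domain of 25328 bp carries the starts of 5 protein-coding genes: Car11, Dbp, Sphk2, Rpl18 and Fam83e. Dbp is a clock-controlled transcription factor, Sphk2 a sphingosine kinase and Rpl18 a ribosomal protein. Here a single replicate 2 peak covered 100% of the domain, and both Lsd1 scores were above the 99th percentile (99.1 in tumor 39 and 99.2 in tumor 41). A single Gfi1 peak in each tumor covered 94.5% in tumor 39 and 100% in tumor 41. This was the only domain among the 10 widest with 1 unbroken peak in all 4 libraries.

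Nfix, which encodes a transcription factor of the nuclear factor one family that acts in neural stem cells and cerebellar granule neurons, has a start in a domain of 24592 bp (chr8:84756214-84780805). Gfi1 covered 87.6% in tumor 39 and 94.0% in tumor 41. The Lsd1 score of this domain stood at only percentile 12.2 in tumor 39 and at percentile 76.9 in tumor 41, so the width and the score of the call went apart. It belongs to a run of 6 domains within 10000 bp of each other that spans 89022 bp, of which 76636 bp lie in domains, and Nfix was the one protein-coding gene with a start inside the run. A further domain over other Nfix starts, of 14421 bp, lies at chr8:84701036-84715456.

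The other domains among the 10 widest lie at Coro2a (27305 bp), at 2900026A02Rik (26899 bp), within Iffo2 (22767 bp), at the noncoding RNA Malat1 (22611 bp) and within Ccdc85c (22299 bp). Mean Gfi1 cover over these 10 ran from 82.0% to 97.2%. The lowest single value was 69.8% (Ccdc85c in tumor 41, against 97.7% in tumor 39). In the map of 4 domains, the Gfi1 calls over the widest domain and over Nfix break into several pieces, the 5-gene domain is under 1 unbroken peak in each library, and the Npas4 domain has a single short Gfi1 peak in each tumor, at or just inside the gene's start.

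**Figure D1:**
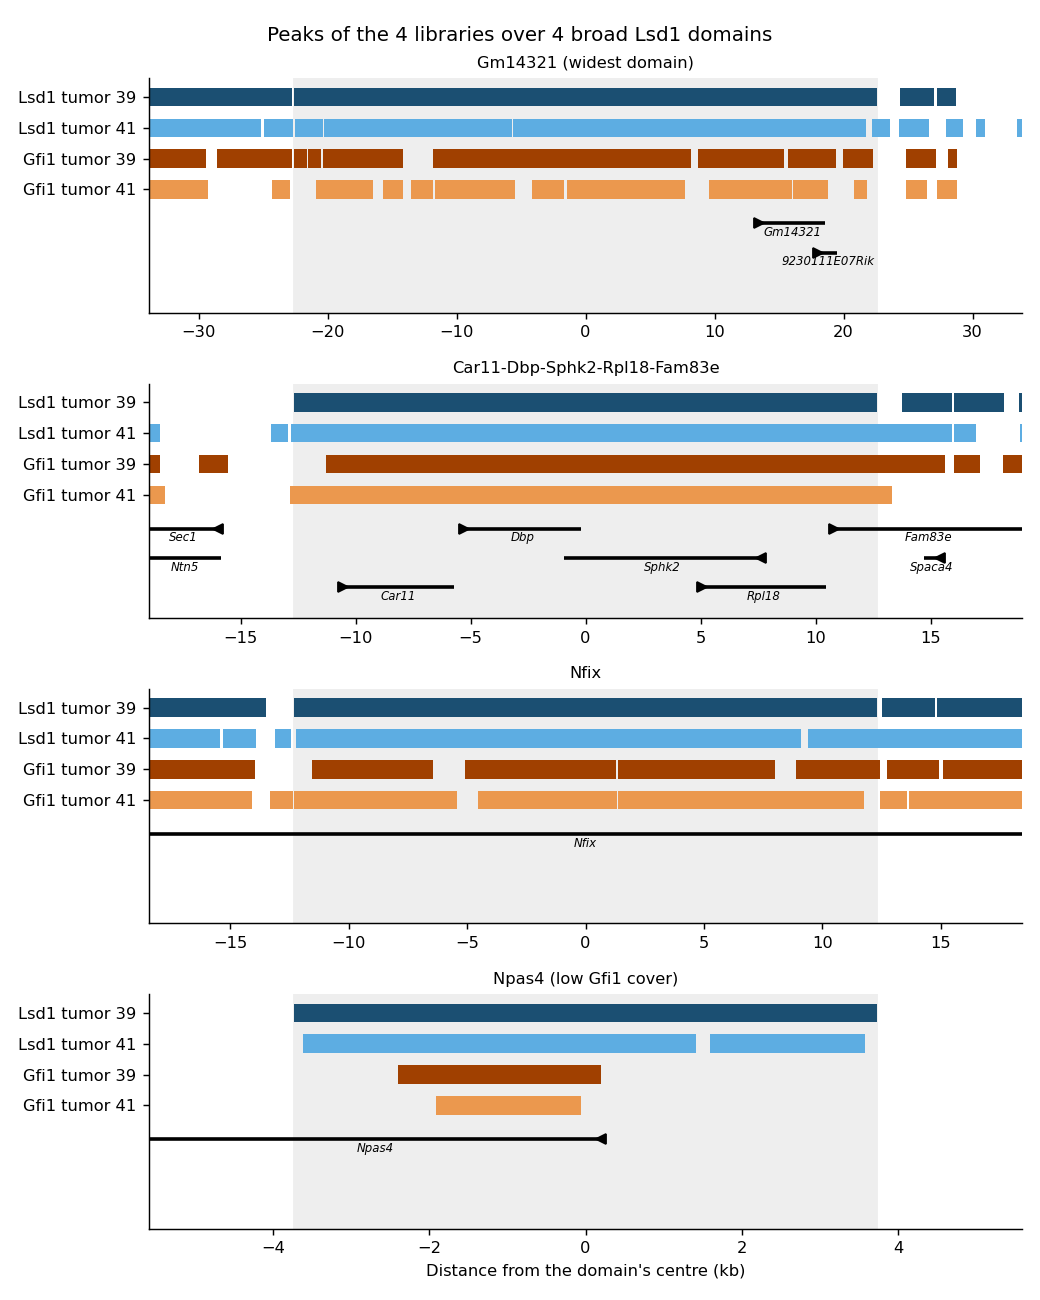
Peaks of the 4 libraries (coloured bars) over 4 broad Lsd1 domains, by distance from the domain's centre in kb; grey shading is the domain and black lines are genes with an arrowhead at the 5′ end. Gfi1 covered 90.6% (tumor 39) and 79.1% (tumor 41) of the widest domain but 34.8% and 24.8% of the Npas4 domain.

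Most domains were built on gene starts. Of the 954 domains, 751 held an annotated transcription start site (TSS), or 78.7% (Clopper-Pearson 95% bounds for counting error, 76.0 and 81.3), against 55.4% of the narrower peaks. A TSS of a protein-coding gene lay in 699 domains (73.3%), against 51.7% of the narrower peaks. A wide region holds a TSS more easily: per 100 kb of sequence, domains held 11.4 coding genes with a TSS and the narrower peaks 26.5. Another 52 domains held starts of other genes only, 140 lay inside a protein-coding gene without a TSS, 14 inside another gene and 49 between genes. The last 3 kinds were less common than among the narrower peaks, at 14.7% against 26.7%, 1.47% against 2.53% and 5.14% against 15.4%. The widest domains with no TSS within 1000 bp were those in Ccdc85c and A530013C23Rik given above, 1 of 17942 bp in Bahcc1, 1 of 17391 bp in Celsr1, a cadherin of planar cell polarity, and 1 of 15910 bp in Pth1r, the parathyroid hormone receptor.

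A start in a domain was found for 926 of 21938 protein-coding genes (4.22%), or for 7.42% of the 12478 coding genes with a reproducible Lsd1 peak of any width within 1000 bp of a TSS. These 926 were short genes. Their median length was 11.2 kb, against 24.9 kb for the genes with a reproducible Lsd1 peak but no domain, and 46.1% against 23.6% were under 10 kb. Over all coding genes the median was 17.4 kb. Counting only a gene's own 5′ end, 764 of the 926 remained. The whole body of 237 coding genes lay inside a domain. Of the domains with coding starts, 500 held 1 such gene, 148 held 2 and 51 held at least 3. The most, 6 genes, were in chr7:127013661-127026701 (Mvp, Pagr1b, Pagr1a, Gm42742, Prrt2 and Maz), where Gfi1 covered 99.0% in tumor 39 and 93.4% in tumor 41. Other domains of 5 coding genes were a histone gene cluster on chromosome 13 and an interferon zeta cluster at chr4:88781695-88795221. The interferon cluster is made of near-identical copies, so its reads could belong to any of them. Its Lsd1 score stood at percentile 80.1 in tumor 39 and percentile 26.2 in tumor 41.

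Around a start, the domains reached further into the gene than upstream of it. For the 356 domains that held the 5′ end and the only coding TSS of 1 gene, the median reach was 2446 bp upstream and 5104 bp downstream. The downstream arm was the longer one in 282 of them (79.2%). The same leaning was present in narrower peaks, with 74.8% of 770 peaks of 4000 to 6000 bp and 75.4% of 4268 peaks of 2000 to 4000 bp, so the direction is shared with the domains.

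Gfi1 peaks followed the same outline. At 250 bp upstream of the 5′ end, 97.2% of these genes lay under a Gfi1 peak in tumor 39 and 93.8% in tumor 41. At 750 bp downstream the shares were 99.2% and 95.2%. At 4750 bp downstream, where 60.1% of the domains were still present, they were 60.1% and 46.1%. Counting only domains that still reached that point, the shares were 85.5% in tumor 39 and 65.7% in tumor 41. The plot around the gene start shows all 3 curves leaning to the downstream side.

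**Figure D2:**
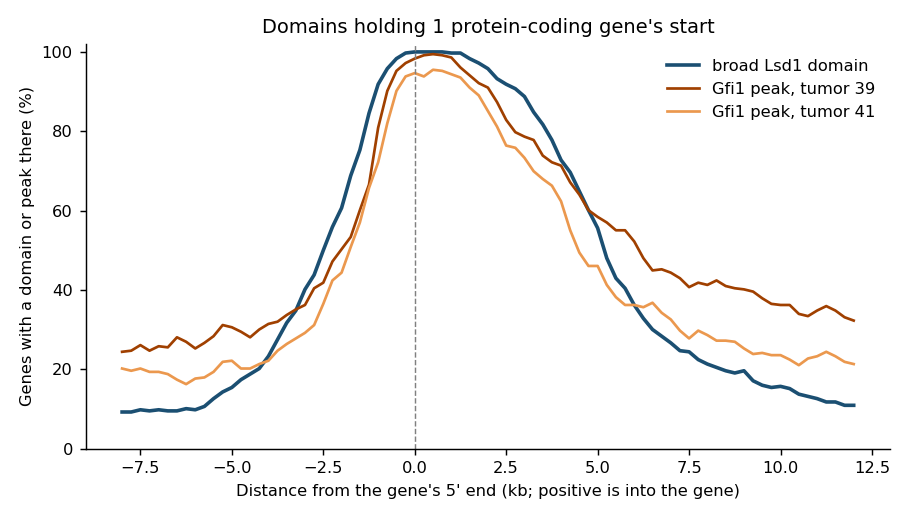
Share of the 356 genes (in %) that have a broad Lsd1 domain (blue) or a Gfi1 peak of tumor 39 (dark orange) or tumor 41 (light orange) at each distance from the gene's 5′ end in kb. The domain curve falls to 34.8% at 3250 bp upstream but is 77.8% at 3750 bp downstream.

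Gfi1 was not used to choose the domains, and it was nearly always there. In tumor 39 all 954 domains were touched by a Gfi1 peak, and in tumor 41 949 were (99.5%). The narrower peaks were touched in 88.0% of cases in tumor 39 and 77.99% in tumor 41. However, a wide region is touched more easily, and the narrower peaks were not matched to the domains for Lsd1 score. Gfi1 peaks covered on average 86.0% of a domain's length in tumor 39 and 77.0% in tumor 41, which gives 81.5% ± 6.40 (SD, n = 2). The narrower peaks had 72.6% and 62.9%, which gives 67.7% ± 6.86 (SD, n = 2). Domains were above the narrower peaks by 13.4 percentage points in tumor 39 and by 14.1 in tumor 41, a difference of 13.8 ± 0.460 (SD, n = 2). The difference had the same sign in both tumors and exceeded the SD between tumors of either class, but 2 tumors allow no test of it. Cover was also higher in wider peaks throughout. It was 46.4% ± 10.8 below 1000 bp, 75.4% ± 4.38 from 2000 to 4000 bp, 76.3% ± 5.11 from 4000 to 6000 bp, 79.4% ± 6.00 from 6000 to 8000 bp and 88.3% ± 5.64 in the 16 domains of 20000 bp or more (SD, n = 2 each). Domains just above the width limit therefore differed little from the peaks just below it.

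**Figure D3:**
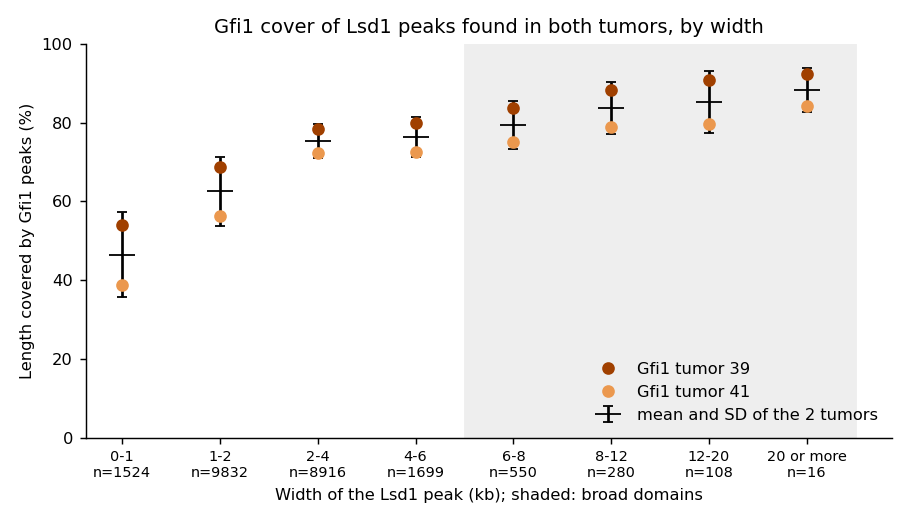
Mean share of an Lsd1 peak's length covered by Gfi1 peaks (in %) by peak width in kb, for peaks found in both tumors; orange points are the tumors, black bars their mean and SD, and grey shading the broad domains. Cover was 79.4% in the narrowest class of domains and 88.3% in the widest, beside 46.4% for peaks under 1000 bp.

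At least 50% of the length was under Gfi1 in both tumors for 856 domains, or 89.7% (Clopper-Pearson 95% bounds for counting error, 87.6 and 91.6). The bounds take domains as independent, although they share their libraries and 276 had another domain within 10000 bp. They say nothing of the spread between tumors, where 98.0% of domains passed in tumor 39 and 91.0% in tumor 41. Over reproducible Lsd1 peaks of any width the share was 66.6%, and over the narrower ones 65.6%. Of the other 98 domains, 79 passed 50% in tumor 39 only, 12 in tumor 41 only and 7 in neither. Cover was at least 90% in both tumors for 171 domains (17.9%) and averaged under 50% over the tumors for 27. The 27 with little Gfi1 held a coding TSS in 48.1% of cases and a median of 1.82 CpG per 100 bp. The 171 with the most held one in 85.4% and had 2.87 CpG per 100 bp. The Lsd1 score percentiles of the 27 had medians of 84.2 in tumor 39 and 72.8 in tumor 41, against 97.3 and 96.9 for the 171. The higher cover was in tumor 39 for 680 domains (71.3%), against 52.0% of the narrower peaks. These shares are not alike, because regions with equal cover stay in the totals. Only 2 domains were equal, whereas every narrower peak without Gfi1 in both tumors is equal, and those were not counted. All edges came from the Lsd1 list of tumor 39, whose Gfi1 list was also longer (36836 against 25078 peaks). Whether the leaning to tumor 39 is particular to domains was not tested. Across the 954 domains the cover of the tumors had a Spearman correlation of 0.373, a description across regions that share their libraries.

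Within a domain, Gfi1 filled the middle and thinned at the edges. Over the central 20% of the length, an average of 94.6% of domains were under Gfi1 in tumor 39 and 88.4% in tumor 41. In the outermost 5% at the ends the shares were 58.3% and 39.6%. Lsd1 of tumor 41, which the rule used, thinned at the edges as well. It was present on 98.8% to 99.7% of domains in the central 20%, on 72.6% at the lower-coordinate end and on 70.6% at the other. The edges themselves were set by Lsd1 of tumor 39, so the thinning is not particular to Gfi1. Gfi1 was often called in pieces: 59.2% of domains in tumor 39 and 62.1% in tumor 41 held at least 2 Gfi1 peaks, up to 7 and 9. Bases under Gfi1 in both tumors were 72.8% of all domain sequence and held 2.88 CpG per 100 bp, against 1.58 in the remaining 27.2%. AAATCAC on either strand occurred 7.30 times per 100 kb under Gfi1 in both tumors and 7.87 times in the rest of the domains. These parts differ in CpG density and were not matched for base composition, so nothing about Gfi1 was drawn from these counts.

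The lowest mean Gfi1 cover at a coding start was at Npas4, an activity-induced transcription factor of neurons (chr19:4986392-4993842). Its Lsd1 scores, at percentile 99.2 in tumor 39 and percentile 97.4 in tumor 41, were above the medians of the 27 domains with little Gfi1, while Gfi1 covered 34.8% in tumor 39 and 24.8% in tumor 41. The Gfi1 peak there was at percentile 70.7 of its list in tumor 39 and percentile 58.8 in tumor 41. Lower values were found at a domain near Gm21119 on chromosome 8 (50.6% in tumor 39 and 0% in tumor 41) and inside Adgrb1, an adhesion receptor of the brain (57.6% and 0%). Next above Npas4 were a domain inside Gse1, which encodes a protein of Lsd1-CoREST complexes (58.8% and 9.96%), and 1 inside Ece1, an endothelin-converting protease (38.5% and 32.8%). At the other end, the 5 highest mean covers were 99.7% to 100%, inside Klhdc4 and Plxnd1, a semaphorin receptor, at Ppan and Eif3g, inside Def8, and at Vasp, an actin regulator. The Klhdc4 domain, at 100% in both tumors, is 87.4% repeat-masked, the highest share among the domains.

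In all, 5 domains, chosen after their values were seen, had no Gfi1 peak at all in tumor 41. They are the Gm21119 and Adgrb1 domains, 1 at Kctd17 (78.9% in tumor 39), 1 of 13028 bp at Tns2 (92.3%) and 1 of 15921 bp in the 5S ribosomal RNA array (100%). The same 5 were covered over 50.6% or more in tumor 39. Tns2 is a focal adhesion protein, and its domain had Lsd1 scores at percentiles 96.6 and 97.2.

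The 5S ribosomal RNA array on chromosome 8 held 4 neighbouring domains within chr8:123536748-123591711, of which 54531 of 54964 bp lay in domains. Copies of the n-R5s genes, which encode the RNA of the large ribosomal subunit's 5S particle, start in each. The Lsd1 percentiles lay between 67.1 and 93.0 for tumor 39, and between 87.5 and 99.2 for tumor 41. Gfi1 in tumor 39 covered between 99.0% and 100% of each. In tumor 41 it covered 98.0%, 9.99%, 0% and 98.4% in order along the chromosome. Repeat-masked sequence made up 76.8% to 83.0% of these domains, against a median of 14.2% over all domains, and the copies are near-identical, so that reads may come from any copy. Only 7 domains were masked over more than 50% of their length, these 4 among them.

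Immediate early genes, which respond to growth factors within minutes, had 13 of their 30 annotated members in domains (43.3%, beside 4.22% of all coding genes). Of the 29 members with any reproducible Lsd1 peak, 44.8% were in domains, beside 7.42% for coding genes in general. The members were Jun, Junb, Jund and Fosb of the AP-1 factor, Ier2, Srf, which binds the serum response element, Klf10, the orphan nuclear receptor Nr4a3, the antiproliferative Btg2, the phosphatase Dusp1, and Zfp36, Zfp36l1 and Zfp36l2, which destabilize AU-rich mRNAs. All 13 were covered by Gfi1 over at least 50% in both tumors, as were 89.7% of all domains. Their mean cover was 86.7% ± 0.385 (SD, n = 2), beside 81.5% ± 6.40 over all domains.

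At Jun (6139 bp) Gfi1 covered 73.3% in tumor 39 and 99.8% in tumor 41. At Jund (11595 bp) it covered 95.3% and 81.6%. At Fosb (11785 bp) it covered 81.8% and 70.9%. The order of the tumors was thus not the same from gene to gene. Zfp36 (14420 bp) had 93.0% and 93.1% and Zfp36l1 (7880 bp) had 96.3% and 98.6%, each nearly equal between tumors. The lowest mean was at Btg2, a p53 target as well (9837 bp), with 66.0% and 72.6%. Lsd1 scores at Jun, Jund, Ier2, Klf10, Nr4a3, Srf and Zfp36l1 were tied at 1 high score that many peaks share, at percentile 99.7 in tumor 39 and 99.2 in tumor 41. Junb stood apart, with a domain of 15861 bp at percentile 42.1 in tumor 39 and percentile 99.2 in tumor 41.

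The Id and Hes-Hey repressors, helix-loop-helix proteins that hold back differentiation, had 5 of 11 members in domains (45.5%). Over all coding genes the share was 4.22%. Id1 (8489 bp) was covered by Gfi1 over 98.0% in tumor 39 and 99.1% in tumor 41. Id2 (7205 bp) had 100% and 94.2%. Id3 (7403 bp) had 97.6% and 96.9%. These 3 genes encode the Id proteins, which bind partner factors and keep them off DNA. Hes5 (9968 bp), an effector of Notch signalling in neural progenitors, had 99.9% and 97.8%, and Hes7 (10794 bp) had 88.9% and 87.8%. Their mean, 96.0% ± 1.21 (SD, n = 2), was made of 96.9% in tumor 39 and 95.2% in tumor 41, beside 86.0% and 77.0% over all domains. The Hes7 domain was also among the 5 with the highest mean Lsd1 score percentile.

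Ribosomal proteins had 24 of 83 genes in domains (28.9%, beside 4.22% of all coding genes), in 23 domains. Widths ran from 6022 bp at Rpl26 to 25328 bp at Rpl18. Mean Gfi1 cover at these was 87.7% ± 0.0416 (SD, n = 2), beside 81.5% ± 6.40 over all domains. Single domains differed more between the tumors, in either direction, and these differences cancelled in the means. Rpl28 had 68.5% in tumor 39 and 92.4% in tumor 41, and Rps10 had 97.6% and 83.7%. Rpl26 was the lowest in both tumors, with 60.6% in tumor 39 and 62.1% in tumor 41. Rpl23a (9647 bp) had 92.9% and 100%, and Rps18 (9780 bp) had 96.6% and 97.4%. Translation factors added 5 of 29 (17.2%): Eef1a1 and Eef2, which carry out elongation, Eif4a1, an RNA helicase, and Eif3d and Eif3g of the scaffold for initiation. Eef2 lay in a domain of 13284 bp with 90.6% and 99.5% Gfi1 cover.

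Replication-dependent histone genes had 14 of 67 members in domains (20.9%, beside 4.22% of all coding genes). However, these are only 5 domains, because 4 of them hold 2 to 5 genes each. At chr13:23569960-23577511 (7552 bp), Hist1h2ae, Hist1h2bg, Hist1h2bf, Hist1h2ad and Hist1h3d share 1 domain at that tied high score in both Lsd1 lists. Gfi1 covered 73.4% of it in tumor 39 and 97.3% in tumor 41. At the domain of Hist1h2bq, Hist1h2ao and Hist1h4m the order was the other way, with 95.7% and 70.9%. Histone genes are near-identical copies, so reads may be shared among them.

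Cytoskeletal genes had 6 of 19 members in domains (31.6%, beside 4.22% of all coding genes). They were Actb and Actg1, the cytoplasmic actins, the actin regulators Pfn1 and Cfl1, and the tubulins Tubb4b and Tubb5. All 6 had Lsd1 scores above the 97th percentile in both tumors, the lowest being 97.6 (Tubb5, tumor 41). Gfi1 covered 95.4% of the Actb domain (7128 bp) in tumor 39 and 92.1% in tumor 41, and 74.6% and 67.7% of the Cfl1 domain (7596 bp). Heat shock genes had 4 of 25 (16.0%): Hspd1 and Hspe1, the mitochondrial chaperonins that share 1 promoter region, and Hsp90aa1 and Hsp90ab1. The Hspd1-Hspe1 domain had 60.02% in tumor 39 and 88.4% in tumor 41.

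Cell cycle genes were listed in a G1 and a mitosis group, whose difference was not tested. Of the G1 cyclins, kinases, inhibitors and E2F factors, 6 of 26 (23.1%) were in domains: Ccnd1 and Ccnd3, the D-type cyclins, their kinase Cdk4, the inhibitors Cdkn1a and Cdkn2d, and E2f2. Of the genes of mitosis and the anaphase-promoting complex, 0 of 31 were in domains, although 30 of the 31 had a reproducible Lsd1 peak of some width, beside 7.42% in domains over all coding genes with such a peak, a share at which 30 genes would hold few. Ccnd1 had the domain of 12845 bp, with Gfi1 cover of 73.2% in tumor 39 and 82.1% in tumor 41. Cdk4 (6467 bp) had 100% and 94.0%. Cdkn1a, the p53 target p21, had the lowest value of the 6 (62.1% in tumor 39 and 80.3% in tumor 41). Of 20 p53 targets 4 were in domains (20%, beside 4.22% of all coding genes). They were Btg2, Cdkn1a, the apoptosis gene Bbc3 (84.3% and 73.6%) and Gdf15 (84.0% and 87.5%).

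In the Myc, Max and Mxd network, which includes the oncogene carried by these tumors, 3 of 13 genes were in domains (23.1%). Over all coding genes the share was 4.22%. The 3 are Mnt, Mxd3 and Mxi1, which all encode partners of Max that oppose Myc. Mnt had the widest of these at 18887 bp, with Gfi1 cover of 90.5% in tumor 39 and 80.9% in tumor 41. Mxi1 (6893 bp) had 99.3% and 85.2% and Mxd3 (6230 bp) had 89.0% and 81.9%, so all 3 were higher in tumor 39. Of the Lsd1-CoREST and SNAG proteins themselves, 2 of 19 were in domains (10.5%): Rcor2, a CoREST protein, and Gse1. Of the 16 with any reproducible Lsd1 peak, 12.5% were, beside 7.42% of all coding genes with such a peak. At that share 16 genes would hold few. Starts of Gse1 lay in 2 domains, of 15164 bp (88.0% in tumor 39 and 73.3% in tumor 41) and 11249 bp (93.9% and 85.7%). They belong to a run of 4 domains over 63596 bp.

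Shares of all annotated signalling and neural genes are set beside the 4.22% of all coding genes. The 7.42% is for coding genes with a reproducible Lsd1 peak. Among list members with such a peak, the shares were 22.2% of 18 for Notch, 16% of 25 for BMP and TGF-beta and 18.75% of 32 for axon guidance. They were 10% of 10 for Sonic hedgehog and 17.4% of 23 for the neural progenitor and cerebellar factors. Notch signalling had 4 of 19 (21.1%): Notch1 itself, the glycosyltransferases Lfng and Mfng that modify it, and Numbl. The Notch1 domain was 16902 bp wide and held 6 Gfi1 peaks in tumor 39 and 4 in tumor 41, with 91.1% and 77.5% cover. BMP and TGF-beta signalling had 4 of 28 (14.3%), namely the ligand Bmp4 and the antagonists Smad6, Smad7 and Ski. Smad6 (7890 bp) had 98.9% and 100%. Axon guidance had 6 of 38 (15.8%), the ephrins Efna1, Efna2, Efna3 and Efna4 and the semaphorin receptors Plxnb1 and Plxnb2. However, the domains of Efna1, Efna3 and Efna4 lie close together on chromosome 3. Of 13 Sonic hedgehog genes 1 was in a domain (7.69%), that of the receptor Ptch1 (9341 bp, 78.2% and 74.0%). Of 48 neural progenitor and cerebellar transcription factors, 4 were (8.33%): Nfix, Nfic, Zic2 and Irx5. Nfic starts lay in 2 adjoining domains of 17070 and 15399 bp, with Gfi1 cover of at least 95.2% in each tumor.

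Of the remaining lists, histone methylation enzymes had 5 of 34 (14.7%; Setd1b, Dot1l, Kdm6b, Nsd1 and Kdm4b), the Bcl2 family 2 of 16 (12.5%; Bbc3 and Bad) and splicing factors 3 of 47 (6.38%; Hnrnpl, Ptbp1 and Sf1). All 47 splicing genes had a reproducible Lsd1 peak, so their share lies beside 7.42% over all coding genes with a peak. The Hox clusters had 0 of 39 and the clustered protocadherins 0 of 57. Only 3 Hox genes and 2 protocadherins had a reproducible Lsd1 peak of any width near a TSS. Among markers of other cells, 0 of 7 for endothelium, 0 of 7 for oligodendrocytes, 0 of 7 for astrocytes and 0 of 9 for mature neurons were in domains. Of these, 0, 2, 2 and 4 had any reproducible Lsd1 peak, and at the 4.22% of all coding genes lists this short would often hold none. Of 10 microglia and blood markers, Cd68 was in a domain, which it shares with Eif4a1 (7674 bp, 73.7% and 77.1%). All these shares are descriptions, since genes of a list were not sampled at random and the lists differ in gene length and in how many members have any Lsd1 peak.

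**Figure D4:**
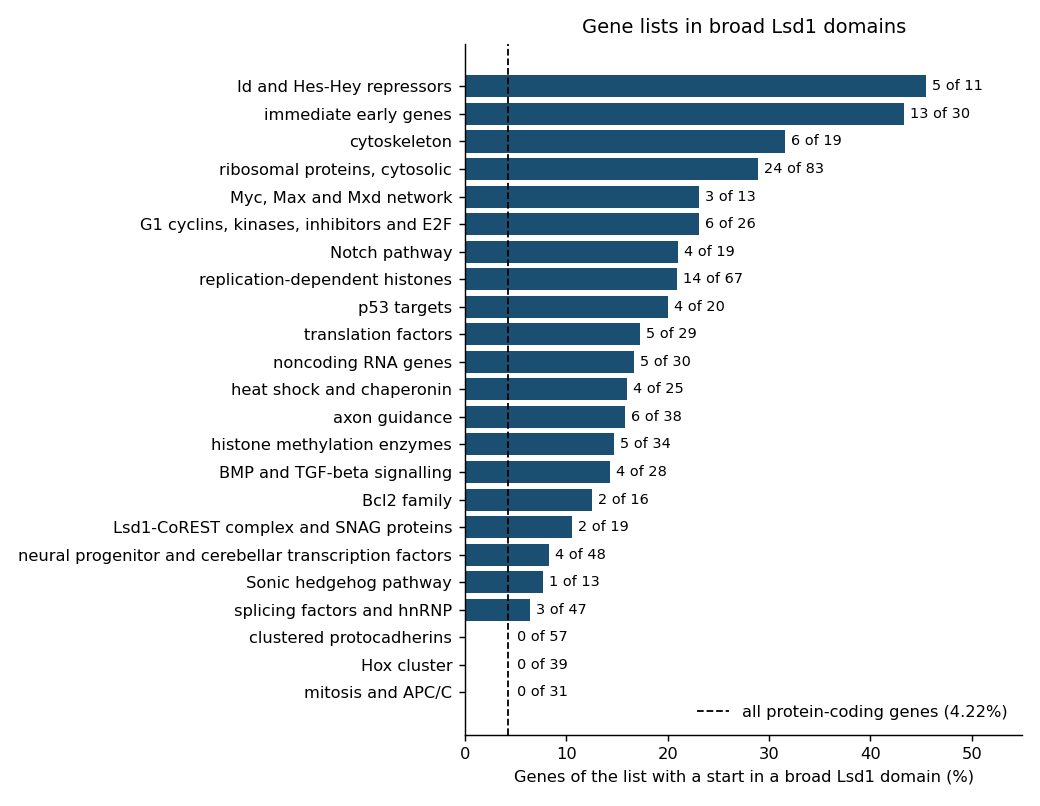
Share of each gene list (in %) with a start in a broad Lsd1 domain, with the number of genes beside each bar; the dashed line is the 4.22% over all protein-coding genes, and lists of under 11 genes are left out. The Id and Hes-Hey repressors (45.5%) and the immediate early genes (43.3%) have the longest bars, and the Hox, protocadherin and mitosis lists have none. The dashed line is not a share for the noncoding RNA list.

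Among noncoding RNA genes, 5 of 30 listed were in domains (16.7%): Malat1, Neat1, Snhg15, Snhg20 and Mir22hg. The share over all noncoding RNA genes was not computed, so this count has no matching share beside it. Malat1 and Neat1, abundant nuclear RNAs of which Neat1 builds paraspeckles, are neighbours on chromosome 19. The Malat1 domain (22611 bp) had Gfi1 cover of 90.1% in tumor 39 and 95.02% in tumor 41. Neat1 (15591 bp) had 99.2% and 98.5%. Of 2202 annotated microRNA genes, 61 started in a domain (2.77%, below the 4.22% of coding genes). Only 281 started in a reproducible Lsd1 peak of any width, and the 61 are a larger share of those than 7.42%. That 7.42% is for coding genes with such a peak within 1000 bp of any TSS, so the measures are not alike. One domain, chosen after its genes were seen, spans both microRNAs of the miR-132 and miR-212 cluster, which is known for its response to neuronal activity (chr11:75164616-75174421, 9806 bp). Gfi1 covered 98.3% of it in tumor 39 and 82.4% in tumor 41. The RefSeq mature sequences show that the 3p arms share 1 seed (bases 2 to 8, in capitals), so that this 1 domain covers the templates of a pair with the same seed.
mmu-miR-132-3p: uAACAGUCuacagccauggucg
mmu-miR-212-3p: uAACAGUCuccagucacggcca

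Domains scored high but were not ordered by score. The median domain stood at percentile 95.1 of the Lsd1 list in tumor 39 and its best replicate 2 peak at percentile 94.1 in tumor 41, with 85.4% and 82.6% in the upper 20%. The medians of the narrower peaks were 58.6 and 64.8. Width and score come from the same reads, so this is a description. Among the narrower peaks the score percentile went up with width (Spearman correlation 0.809 over 21971 peaks), and within the domains it did not (−0.0817 over 954). The sets were split at 6000 bp, so these correlations cover different ranges of width. In addition, 97 domains stood at or above the tied high score of the tumor 39 list. In the 16 domains of 20000 bp or more the medians were 76.8 in tumor 39 and 89.0 in tumor 41, below those of the domains of 6000 to 8000 bp, at 95.6 and 93.8. The score percentiles of the tumors had a Spearman correlation of 0.743 across domains.

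The highest mean Lsd1 percentiles were at a domain between genes on chromosome 5 with Dhx37 as the nearest coding gene, at Agap1, inside Sh2d6, at Tgif2, a repressor of TGF-beta responses, and at Hes7. None of these 5 was wider than 10794 bp. In tumor 39, 12 domains fell below the 50th percentile, chosen after the values were seen, with Tmem201 the lowest at 11.1 and Nfix next at 12.2. The group includes Junb and Ski. In tumor 41 only 3 domains did so. The best Gfi1 peak in a domain, the highest of several in most domains but of 1 in most narrower peaks, stood at a median of percentile 92.5 in tumor 39 and percentile 90.3 in tumor 41. For the narrower peaks that Gfi1 touched, it was 71.2 and 60.8.

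The domains were spread unevenly over the chromosomes. Per 100 protein-coding genes, the autosomes held from 0.753 domains (chromosome 16, with 5 in all) to 8.54 (chromosome 15, with 67), with a median of 4.12. Chromosomes 8, 10, 11, 15 and 17, the highest 5, held 411 domains (43.1%) with 25.3% of the coding genes, which is 7.42 per 100 genes against 3.55 on the other 14 autosomes. They were picked after the values were seen. Each library alone put chromosome 16 below all other autosomes except in Lsd1 of tumor 41, where chromosome 18 was lower (1.17 peaks of at least 6000 bp per 100 genes against 1.51). Over the 19 autosomes, domains per 100 genes had a Spearman correlation of 0.570 with gene density and of 0.595 with GC content, a description over chromosomes that share the libraries.

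The X chromosome held 0 domains among its 366 reproducible Lsd1 peaks, whose median width was 1502.5 bp. The Y chromosome held 1, chrY:90737064-90746290 (9227 bp), with Gfi1 cover of 93.6% in tumor 39 and 97.5% in tumor 41. It lies at the end of that chromosome, 43.2% of it is repeat-masked, and it was chosen after its values were seen. Domains also lay close together: 276 of them (28.9%) had another domain within 10000 bp, in 117 runs of which 30 held at least 3, and 59 gaps were under 1000 bp, the smallest 6 bp.

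**Figure D5:**
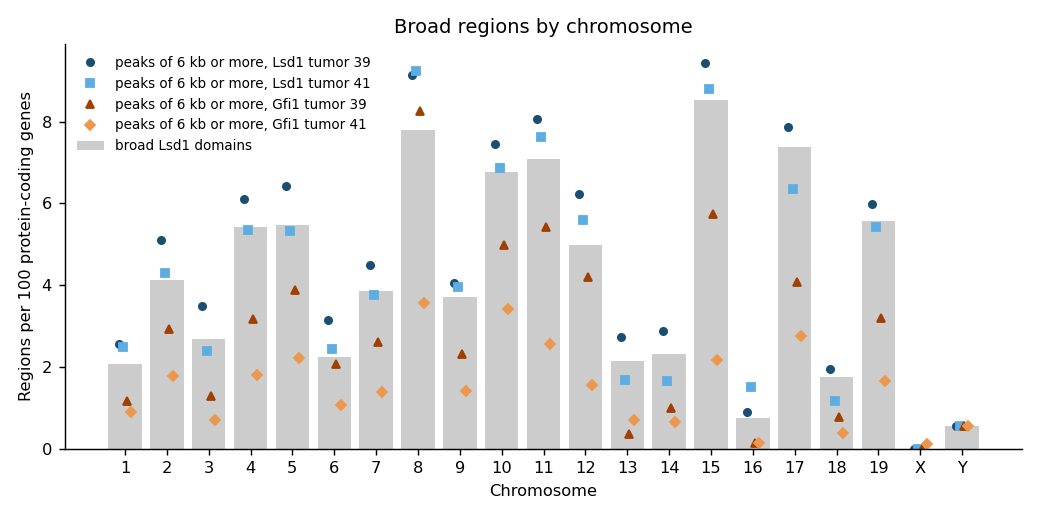
Broad Lsd1 domains per 100 protein-coding genes on each chromosome (grey bars), with the peaks of at least 6000 bp in each of the 4 libraries (points). Chromosomes 8, 10, 11, 15 and 17 stand highest for the domains, between 6.76 and 8.54, and chromosome X has none.

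In base composition the domains were GC-rich, with a median of 53.9% GC against 52.0% in the narrower peaks and 41.7% in the genome. CpG density was a median of 2.38 per 100 bp, slightly below the 2.67 of the narrower peaks and above the genome's 0.826. By position, the median was 2.65 at coding starts and between 1.46 and 1.82 in the other classes. AAATCAC on either strand was in 438 domains (45.9%), whereas 72.3% of 348136 genome windows of 7596 bp, the width of a median domain, held it. It occurred 7.46 times per 100 kb in domains, 10.6 times in the narrower peaks and 17.6 times in the genome. The sequence is mostly A and T, and no background of matched GC content was counted. Nothing about Gfi1 binding was drawn from this count.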

How the data were processed

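The peak lists of 4 ChIP-seq libraries (Gfi1 and Lsd1 from MG tumors 39 and 41) were used as deposited. The authors aligned reads to mm10 with BWA 0.6.2, merged files with Picard, removed duplicates and ran MACS with its default settings on each library against input, as the methods and the submitters' processing notes give it. The MACS version is not given in the sources used here. Each list holds a position and the authors' score, whose definition is not given in the sources used here; the score is at least 50.0 and was only ranked within a list, as a percentile. Read counts per peak were not analysed here, so the depth and the precision of a single peak are unknown.

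Broad domains, their Gfi1 cover (share of length under Gfi1 peaks), and gene starts were computed in Python 3.11.15 with numpy 2.4.6, pandas 2.3.3 and scipy 1.17.1. Genes and TSSs of all transcripts came from GENCODE M21 on GRCm38, the build of mm10 (the authors used M9), and sequence, repeat masking and promoters from RefSeq. Same-numbered libraries come from the same tumor, as the descriptions of the samples give it. Errors are SD over 2 tumors, intervals are exact binomial at 95%, and no test was run. The intervals take regions as independent, which regions of the same libraries are not. The domains and gene lists were chosen with earlier results of these data known. Genes were named by rule: the 10 widest domains; 5 each for highest Lsd1 score, lowest and highest Gfi1 cover, most coding genes and widest without a TSS; list members in domains; and peaks at the thresholds. Alternatives varied width, overlap, score, cover, TSS set and libraries. Those that joined peaks under 1000 bp apart, and the widths for score percentiles, were chosen after seeing the data. The coverage code was tested on simulated data. One member of a gene list is not reported here.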

Additional observations from a re-analysis of the deposited data

How the results depend on the processing

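In all, 6 values were recomputed under 36 alternatives, of which 24 moved a count by no more than 1.5 times or a value by less than the spread between tumors. The width limit moved the counts most. At 5000 bp there were 1530 domains, 1339 of them covered by Gfi1 over at least 50% in both tumors and 1185 with a TSS, and the median score percentile averaged over the tumors was 93.6 in place of 94.6. At 8000 bp these counts were 404, 379 and 332, and 448 coding genes had a start in a domain in place of 926. Joining peaks under 1000 bp apart in both replicates, an alternative chosen after seeing the data, gave 1581 domains with a Gfi1 cover of 71.7%. Asking for 75% Gfi1 cover in both tumors left 534 domains. With Gfi1 peaks in the upper 20% of the score only, mean cover was 54.5% ± 9.34 (SD, n = 2) in the domains and 21.2% ± 6.16 in the narrower peaks.

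Leaving out 1 Lsd1 replicate gave from 970 to 1106 domains, Gfi1 cover from 79.4% to 81.8% and from 955 to 1006 coding genes. The peaks of at least 6000 bp of the replicates shared 701 coding genes, 69.7% of those of replicate 1 and 73.4% of those of replicate 2. Leaving out 1 Gfi1 replicate gave a cover from 77.0% to 86.0%. In the paired form (replicate block), in which each tumor's Gfi1 peaks were set over the same tumor's Lsd1 peak, cover was 83.0% ± 4.25 (SD, n = 2). The lists carry no depth per peak.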

Other observations

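The 152 Lsd1 peaks of at least 6000 bp in tumor 39 that did not enter the set were not absent from tumor 41. All 152 touched a replicate 2 peak, and for 142 of them the replicate 2 peaks together covered at least 50% of the length, with a median of 82.3% in a median of 3 peaks. The widest, chr2:33557374-33586489, is 29116 bp wide and had 48.7% in its largest replicate 2 peak. Gfi1 covered a mean of 75.4% of the 152 in tumor 39 and 57.04% in tumor 41, against 86.0% and 77.0% for the domains.

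Of the Gfi1 peaks of at least 6000 bp, 485 of 658 (73.7%) in tumor 39 and 301 of 359 (83.8%) in tumor 41 touched a broad Lsd1 domain, which a wide peak does more easily than a narrow one.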
